A study of Mus musculus with 6 samples.

Results

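Respiratory complex I is built from subunits encoded in the nucleus and in mitochondrial DNA, and the nuclear genes are described here in 4T1, a carcinoma cell line from the mouse mammary gland. Members were taken as the protein-coding genes whose symbol in the GENCODE M21 annotation starts with Ndufa, Ndufb, Ndufc, Ndufs, Ndufv, Ndufab or Ndufaf followed by a digit. The rule found 46 of the 56748 genes in the deposited tables, namely 7 core subunits, 29 accessory subunits, 8 assembly factors (Ndufaf1 to Ndufaf8) and the 2 genes of the Ndufa4 family, which were kept apart. RNA sequencing compared 3 control libraries with 3 libraries from cells exposed to Au/MoS2/Bi2S3 particles and lit in the near infrared (NIR). All 6 libraries are labelled wild type, cancer cell and 1 shared batch. Treated cells were seeded for 24 h, kept overnight with 125 µg/mL of particles, lit with NIR for 8 min, and washed after another 24 h. Control cells, like treated ones, were labelled as collected at 48 h, and groups with particles alone or light alone were not analysed here. Per the labels, RNA was pooled from cells of 3 individuals, and separate cultures for the libraries of a group are not stated. Only the spread between these libraries, possibly technical, thus enters each p-value.

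Complex I oxidises NADH, passes the electrons along iron-sulfur clusters to ubiquinone, and pumps protons across the inner mitochondrial membrane. A hydrophilic arm carries the NADH-binding N module and the ubiquinone-reducing Q module. The membrane arm is made around proteins encoded in mitochondrial DNA, and accessory subunits surround the core in both arms. Assembly factors help to build the intermediates and are absent from the finished enzyme. The complex is the main entry of electrons into the respiratory chain in most cells and a known source of reactive oxygen species.

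Values are the authors' deposited FPKM (fragments scaled by gene length and library size), in which the typical gene is held at the same level in every library. Reads recovered from these values came to 32.6 to 38.1 M (1e6) per library. The library sizes implied by the FPKM were 0.719 to 0.839 times the recovered reads in control and 1.32 to 1.33 times in treated, and the FPKM totals were 450409 to 532583 and 235757 to 241953. A gene is therefore higher or lower relative to the typical gene, and fewer cells of a type and less RNA per cell cannot be told apart in bulk RNA. The 100 most abundant genes took 33.0 to 36.1% of the reads in control and 19.1 to 19.4% in treated. The control libraries were spread widely and the treated ones were not. Across all genes tested, the log2 values of control 2 correlated at 0.911 with control 3 and at 0.906 to 0.911 with the treated libraries, while the treated libraries correlated with each other at 0.991 to 0.993. Of 8 epithelial markers, Krt8, Krt18 and Epcam were detected in every library and fell, and the other 5 were under 1 FPKM throughout, so that the list summed to 1238 to 1472 FPKM in control and 618 to 651 FPKM in treated. Per 1e6 of each library's FPKM total this list was at 2749.5 to 2944 for control and 2611 to 2760.2 for treated, with overlapping groups. Of 6 macrophage markers Itgam and Adgre1 were at 0 in every library and Cd68 alone passed 1 FPKM, at 132, 444 and 76.96 FPKM in the control libraries and 259.6, 242 and 245 FPKM in the treated ones. Of 7 fibroblast markers Col1a1 and Col3a1 fell, Col1a1 from 242, 112 and 754 FPKM to 31.1, 30.6 and 28.8 FPKM, and the other 5 stayed at 1.29 FPKM or less. The 4 endothelial markers reached at most 1.46 FPKM, and the part of other cell types in the results on complex I was not tested.

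On the deposited scale 22 of the 35 subunits tested were lower in the treated cells, 13 were not called and none was higher, while the assembly factors were divided. Of the 46 members, 44 reached 1 FPKM in at least 3 of the 6 libraries and were tested with limma on log2(FPKM + 1) over all 11118 genes that did so. At a Benjamini-Hochberg adjusted p under 0.05, 23 members were lower, 3 were higher and 18 were not called, against 28.3% lower and 27.9% higher among all genes tested. The members' shares were 52.3% lower and 6.82% higher, and their median log2 fold change was -0.69 beside -0.01 for all genes, which became 0.25 beside 0.80 with equal library totals and 0.01 beside 0.59 with library size alone. All 23 falls but that of Ndufaf6 were in subunits (5 of 7 core and 17 of 28 accessory), and all 3 rises were in assembly factors. Among the rises, Ndufaf4 passed the filter through its treated libraries. The treated libraries lay below every control library for 27 members and above every control library for 3, against 34.1% and 33.6% of all genes, and the groups overlapped for 14. By mean FPKM 13 of the called members were at least 2-fold lower, against 16.7% of all genes. Leaving out treated 1 or treated 3 reduced the falls to 13, beside 19.6% and 19.2% of all genes lower in the same fits. The rises numbered 1 without treated 2 and 1 without treated 3, beside 20.9% and 20.5% of all genes higher.

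The count of falls depended on how libraries were scaled. With the recovered reads as library size and no further factor, 9 members were lower and 7 higher, beside 10.3% and 54.3% of all genes. With every library brought to the same FPKM total, 6 were lower and 11 higher, beside 6.62% and 64.6% of all genes, and the median of all genes itself moved to 0.80. Quantile normalization gave 12 lower and 4 higher, beside 24.5% and 27.2% of all genes. Removal of the trend with expression level gave 9 and 3, beside 21.6% and 25.3%, and removal of trends with level, length and GC content gave 12 and 5, beside 23.2% and 22.2%. Relative to the median of all genes under the same setting, 36 of 44 members were below it as deposited, 33 under either rescaling of the libraries, 31 and 32 under quantile normalization and the level trend, and 26 with length and GC content removed as well. Genes of high expression in general were lower in treated cells, with a median of -0.93 for the top 10% and -0.36 for the upper 50% by mean level, and 13 and 41 of the 44 members belonged to these ranges. Ndufa13, Ndufb5, Ndufb10, Ndufb11 and Ndufaf6 were called lower under each of the 18 alternatives run, and Ndufaf4 was called higher under each of the 17 that tested it. Ndufaf4 passed the filter through its treated libraries and was left out by the stricter filter, so that its number of calls gives no added support.

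**Figure D1:**
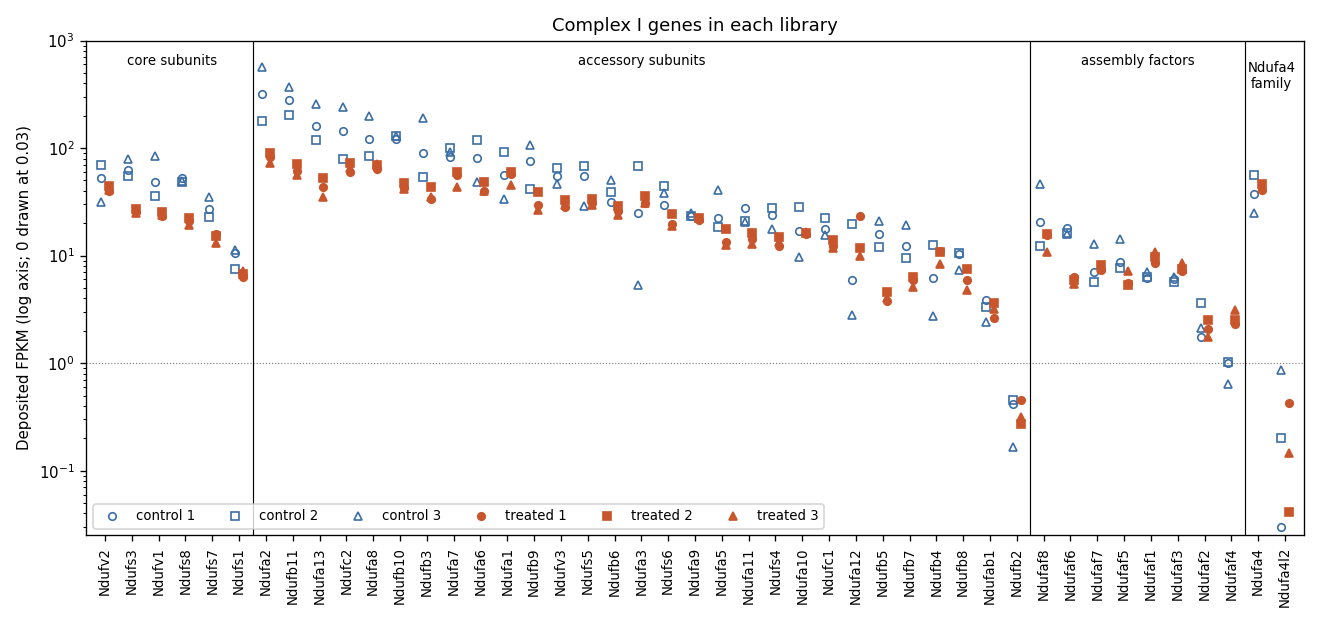
Deposited FPKM on a log axis of the members (columns, 1 subunit not drawn, grouped by class and ordered by mean level) in the 3 control libraries (open blue symbols) and the 3 treated libraries (filled orange symbols), with the dotted line at 1 FPKM. Control symbols are spread widely and treated symbols lie close together, most of them in the lower part of the control range or below it for the abundant subunits.

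Short sequences at the promoters are shown for the letters of 2 factors known to act on respiratory genes, NRF1 and YY1. RefSeq windows on GRCm38.p6, from 250 bases before to 50 bases after a transcription start, matched 40 of the 46 members with 42 windows, and the searches covered both strands. The NRF1 letters, GCGCA, any base and GCGC, were in 23.8% of the members' windows and in 4.60% of all 32851 windows. The YY1 letters AAGATGGC were in 19.05% and 2.75%. Members' windows were also richer in G and C, at a median of 59.3% against 52.7%. All 8 YY1 matches read in the direction of the gene, 11 to 39 bases after the start. Anywhere in the 50 bases after the start, the letters in that direction were in 19.05% of the members' windows and 0.8645% of all windows. The 8 matches are listed with 10 bases of flank where the window allows, the YY1 letters in capitals.
Ndufs7, chr10:80249463-80249490, + strand: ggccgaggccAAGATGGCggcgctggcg
Ndufs4, chr13:114388045-114388069, - strand: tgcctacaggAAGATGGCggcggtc
Ndufs6, chr13:73328433-73328459, - strand: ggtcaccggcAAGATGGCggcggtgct
Ndufb8, chr19:44555393-44555414, - strand: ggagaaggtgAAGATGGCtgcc
Ndufc1, chr3:51408916-51408943, - strand: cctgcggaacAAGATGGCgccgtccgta
Ndufa3, chr7:3617385-3617412, + strand: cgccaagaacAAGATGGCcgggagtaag
Ndufa9, chr6:126849098-126849125, - strand: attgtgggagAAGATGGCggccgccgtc
Ndufaf8, chr11:120098934-120098961, + strand: ggcagggcccAAGATGGCggcgccctcg

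Ndufs7, Ndufs4, Ndufs6, Ndufb8 and Ndufc1 of these 8 genes fell and Ndufa3, Ndufa9 and Ndufaf8 were not called. Of all genes tested 28.3% were lower, and of the members 52.3%. The NRF1 letters had 11 matches in 9 genes (Ndufa5, Ndufa6, Ndufa8, Ndufa11, Ndufaf4, Ndufaf5, Ndufb4, Ndufs5 and Ndufs6), with Ndufb4 holding 3. The 4 of these genes that were called are shown, NRF1 letters in capitals, since they include both directions of change. The capitals of Ndufa11 and Ndufaf4 read as the letters are given, and those of Ndufa8 and Ndufs6 as their reverse complement.
Ndufa8, chr2:36049349-36049378, - strand: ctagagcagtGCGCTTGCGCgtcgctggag
Ndufa11, chr17:56717692-56717721, + strand: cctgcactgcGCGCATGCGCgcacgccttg
Ndufs6, chr13:73328479-73328508, - strand: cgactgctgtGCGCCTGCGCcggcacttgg
Ndufaf4, chr4:24897960-24897989, + strand: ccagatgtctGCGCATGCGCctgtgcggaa

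Ndufaf4, which was higher in treated cells, and Ndufa11, which was lower, hold the same NRF1 letters before the start. A match describes letters in a window and is not a bound site. The YY1 letters contain ATG, and whether these matches mark starts of translation was not tested. Of the other motifs searched, CCGGAAG of ETS factors was in 14.3% of the members' windows and 8.86% of all, AAGGTCA of ERR in 7.14% and 4.72%, and the GC box GGGCGG in 52.4% and 35.7%. The CCAAT letters were in 33.3% and 37.4%, and TATAAA in 11.9% and 13.6%.

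Among the 7 core subunits, the conserved catalytic part of the hydrophilic arm, 5 fell, none rose, and the median log2 fold change was -1.10. Their share lower was 71.4%, beside 28.3% of all genes. The median kept its sign under every setting run and was nearest to 0 with equal library totals, at -0.13. There 1 core gene (Ndufs1) was higher and none was lower, beside 64.6% and 6.62% of all genes. Ndufs3, a scaffold subunit of the Q module, had 62.5, 54.7 and 78.9 FPKM in control 1, 2 and 3 and 25.7, 27.2 and 24.9 FPKM in treated 1, 2 and 3. Its means were 65.3 ± 12.3 FPKM for control and 25.9 ± 1.15 FPKM for treated (SD, n = 3), 2.52-fold lower (log2 fold change -1.29 ± 0.16, limma adjusted p = 0.00114). The call was lost only with equal library totals (limma adjusted p = 0.0533). Ndufs8, which holds iron-sulfur clusters, had 52.5, 48.5 and 49.6 FPKM in the control libraries and 20.9, 22.6 and 19.3 FPKM in the treated ones. The control libraries agreed closely for this gene, at 50.2 ± 2.09 FPKM, and it was 2.40-fold lower (log2 fold change -1.23 ± 0.11, limma adjusted p = 0.000459). That call was lost with equal library totals (limma adjusted p = 0.113).

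Ndufs7, which carries the last cluster before ubiquinone, had 27.05, 22.7 and 34.8 FPKM in the control libraries and 15.7, 15.4 and 13.1 FPKM in the treated ones. Its fall was 1.91-fold (log2 fold change -0.88 ± 0.18, limma adjusted p = 0.00714), and the change became 0.08 with equal library totals. It was also not called with library size alone (limma adjusted p = 0.336) or with the trends in level, length and GC removed (0.172). For Ndufs3, Ndufs8 and Ndufs7 the groups did not overlap.

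The N module core genes were less uniform. Ndufv1, which binds NADH and the flavin, had 48.2, 36.1 and 85.2 FPKM in the control libraries and 23.2, 25.2 and 23.9 FPKM in the treated ones, and control 3 was far above the other libraries. It fell 2.34-fold by mean (log2 fold change -1.10 ± 0.30, limma adjusted p = 0.0218). The fall missed the threshold without control 1 (limma adjusted p = 0.0554), treated 1 (0.0706), treated 2 (0.0588) or treated 3 (0.0676), and it was called in 8 of 18 alternatives. Ndufs1, the large subunit with several iron-sulfur clusters, had 10.5, 7.49 and 11.3 FPKM in the control libraries and 6.38, 6.74 and 7.15 FPKM in the treated ones. Its groups did not overlap, but it was just above the threshold (log2 fold change -0.46 ± 0.16, limma adjusted p = 0.0525), and it passed without control 2 (0.00362). With equal library totals its change was 0.43. Ndufv2, the partner of Ndufv1 with an iron-sulfur cluster, had 52.7, 69.6 and 31.5 FPKM in the control libraries and 40.01, 44.2 and 40.9 FPKM in the treated ones. Its 3 treated values lay inside the control range, where control 2 was highest and control 3 lowest (log2 fold change -0.22 ± 0.28, limma adjusted p = 0.530). Without control 3 it was lower, at -0.53 (limma adjusted p = 0.0185).

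**Figure D2:**
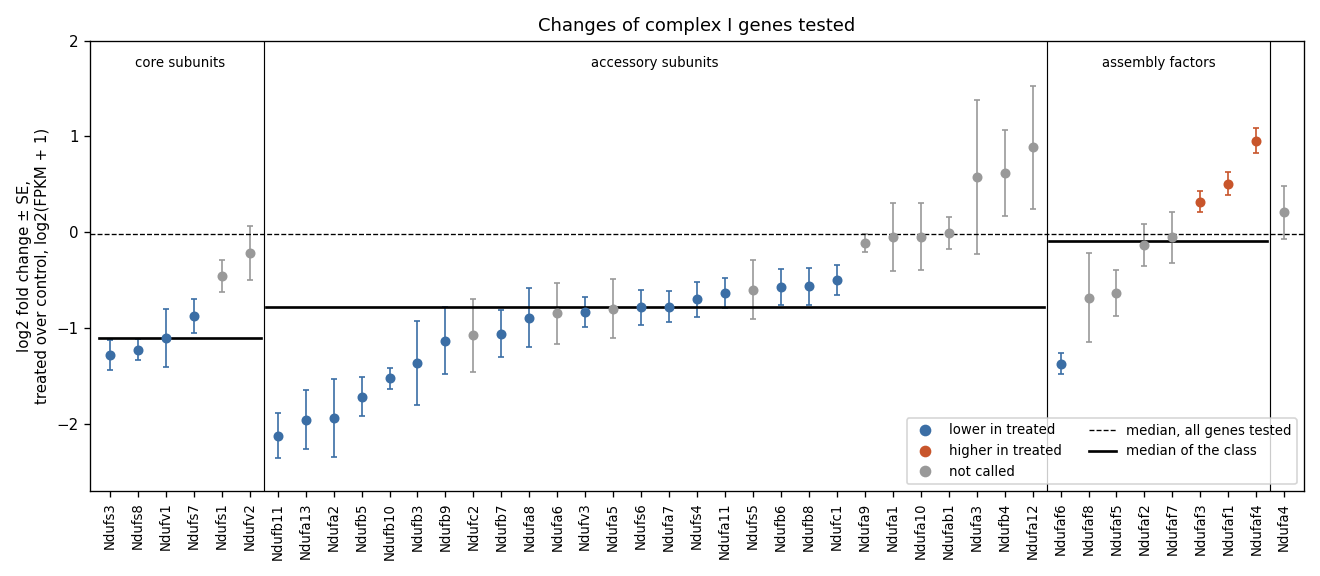
Log2 fold change ± SE (treated over control, log2(FPKM + 1)) of the members tested, 1 subunit not drawn, ordered within each class; blue is lower, orange higher and grey not called. Solid lines mark the class medians (-1.10 core, -0.78 accessory, -0.09 assembly, of which accessory and assembly turned to 0.19 and 0.69 with equal library totals) and the dashed line the median of all genes, and the 3 orange points are all assembly factors.

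Of the 28 accessory subunits tested 17 fell and none rose, and the median log2 fold change of -0.78 turned to 0.19 with equal library totals. Their share lower was 60.7%, beside 28.3% of all genes. Leaving out control 1 gave 11 falls (39.3%), and treated 1 and treated 3 gave 8 each (28.6%). Of all genes 21.8%, 19.6% and 19.2% were lower in these 3 fits. By log2 fold change on the log2(FPKM + 1) scale, the 5 largest falls were those of Ndufb11, Ndufa13, Ndufa2, Ndufb5 and Ndufb10. Ndufb11, a subunit of the ND4 part of the membrane arm (GRCm38 chrX:20615326-20617619), had 282, 204 and 369 FPKM in control 1, 2 and 3 and 61.1, 71.5 and 56.7 FPKM in treated 1, 2 and 3. Every treated library was below the lowest control library by a wide margin, and the mean was 4.52-fold lower (log2 fold change -2.12 ± 0.24, limma adjusted p = 0.000863). Ndufa13, also known as GRIM-19, had 161, 119 and 259 FPKM in the control libraries and 43.2, 52.9 and 35.2 FPKM in the treated ones and fell 4.10-fold (log2 fold change -1.96 ± 0.31, limma adjusted p = 0.00286). Ndufa2, an N module subunit with a thioredoxin-like fold, had 316, 178 and 564 FPKM in the control libraries and 82.5, 90.9 and 72.8 FPKM in the treated ones. It was the most abundant member in control 1 and control 3 and fell 4.30-fold (log2 fold change -1.94 ± 0.41, limma adjusted p = 0.00804). The Ndufa2 call was lost under quantile normalization (limma adjusted p = 0.0608), with the level trend removed (0.0930) and with the trends in level, length and GC removed (0.431).

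Ndufb5 and Ndufb10 lie in the same ND4 part of the membrane arm as Ndufb11. Ndufb5 had 15.7, 12.04 and 20.999 FPKM in the control libraries and 3.76, 4.63 and 4.06 FPKM in the treated ones and was 3.92-fold lower (log2 fold change -1.72 ± 0.20, limma adjusted p = 0.00105). Ndufb10 had 121, 130.4 and 129.9 FPKM in the control libraries and 42.1, 46.96 and 41.5 FPKM in the treated ones. The control libraries differed little for it, and it fell 2.92-fold (log2 fold change -1.53 ± 0.11, limma adjusted p = 0.000305). Together with Ndufb6, 4 of the 5 tested ND4 subunits fell, with a module median of -1.53 that was -0.54 with equal library totals. That share of 80.0% stood beside 28.3% of all genes lower. Ndufb6 was called lower under 6 of 18 alternatives and higher with equal library totals, at 0.39 (limma adjusted p = 0.0491). All 4 tested subunits of the ND5 end, Ndufb3, Ndufb7, Ndufb8 and Ndufb9, fell with a median of -1.10 that was -0.16 with equal library totals. The count of 4 in the ND5 end was 1 without control 1, 1 without treated 1, 1 without treated 3 and 2 without treated 2, and none was called with equal library totals or with library size alone.

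The remaining modules held both fallen and uncalled genes. Beside the counts below, 28.3% of all genes were lower as deposited, and 19.2 to 34.0% with 1 library left out. With equal totals 6.62% of all genes were lower and 64.6% higher, and with library size alone 10.3% and 54.3%. Quantile normalization gave 24.5% and 27.2% of all genes, and removal of the level trend 21.6% and 25.3%. The N module had 6 of 10 lower (Ndufv1, Ndufv3, Ndufs4, Ndufs6, Ndufa2 and Ndufa7) with a median of -0.78 that turned to 0.19 with equal library totals, and 3 of 10 without treated 1 and without treated 3. The Q module had 4 of 6 lower, with a median of -1.03 that was -0.06 with equal library totals, and leaving out any library left at least 4. With equal totals none of the Q module was lower and 1 was higher. With library size alone, quantile normalization or the level trend removed, 3 were lower and 1 higher. In the N module 1 was lower with library size alone or quantile normalization and none with the level trend removed. With equal totals 1 of the N module was lower and 2 were higher. Near the ND1 end 2 of 4 fell (Ndufa8 and Ndufa13), and each of the libraries control 1, treated 1, treated 2 and treated 3 reduced this to 1 when left out. That 1 of 4, 25.0%, was near the 19.2 to 21.8% of all genes lower in these fits. Near the ND2 end 2 of 5 fell (Ndufa11 and Ndufc1), with 1 without control 1, 3 without control 2, 3 without control 3, 1 without treated 2 and none without treated 1 or treated 3. The 1 of 5, 20.0%, was near the 21.8% and 20.1% of all genes lower in the same fits. The medians of -0.47 and -0.60 in these 2 modules turned to 0.52 and 0.37 with equal library totals and to 0.27 and 0.13 with library size alone. The ND1 median was also positive with quantile normalization (0.37), with the level trend removed (0.35) and with the trends in level, length and GC removed (0.76), and the ND2 median with the last of these (0.15). The 12 accessory falls outside the 5 largest were between 1.46-fold for Ndufc1 and 2.98-fold for Ndufb3 by mean FPKM. The groups did not overlap in 11 of them, and they did for Ndufb8.

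Of the other subunits, 11 were not called. Ndufab1, the mitochondrial acyl carrier protein, had 3.87, 3.29 and 2.43 FPKM in the control libraries and 2.64, 3.62 and 3.21 FPKM in the treated ones. The groups overlapped over most of their range (log2 fold change -0.01 ± 0.17, limma adjusted p = 0.971). Ndufa10, a subunit of the membrane arm, had 17.1, 28.6 and 9.66 FPKM in the control libraries and 15.8, 16.4 and 16.7 FPKM in the treated ones (log2 fold change -0.05 ± 0.35, limma adjusted p = 0.918), and Ndufa1, a small membrane subunit, had 56.1, 91.97 and 33.9 FPKM in the control libraries and 57.4, 60.5 and 45.5 FPKM in the treated ones (log2 fold change -0.05 ± 0.35, limma adjusted p = 0.912). In both, control 2 was the highest library and control 3 the lowest, and the treated values lay between them. The change of Ndufa1 was 1.17 and called higher with the trends in level, length and GC removed, and Ndufab1 was called higher with equal library totals (0.74) and with library size alone (0.55). Ndufa12, a small N module subunit, had the largest positive change without being called, with 5.93, 19.6 and 2.80 FPKM in the control libraries and 23.5, 11.8 and 9.91 FPKM in the treated ones (log2 fold change 0.89 ± 0.64, limma adjusted p = 0.281). Without control 2 its change was 1.55 (limma adjusted p = 0.0236). Ndufa3 and Ndufb4 also had positive changes, of 0.58 ± 0.80 and 0.62 ± 0.45, with overlapping groups, and Ndufb4 was called higher without control 2 (limma adjusted p = 0.0228). Ndufa5, Ndufa6, Ndufa9, Ndufc2 and Ndufs5 had negative changes from -1.08 for Ndufc2 to -0.11 for Ndufa9. Ndufa9 was called higher under 4 of 18 alternatives, with a change of up to 0.85 with equal library totals. Ndufc2 (limma adjusted p = 0.0522) passed without control 2 (0.00390), Ndufa5 passed without control 2 (0.0247), and Ndufa6 and Ndufs5 passed without control 3 (0.00296 and 0.00159).

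Among the 8 assembly factors 1 fell and 3 rose, shares of 12.5% and 37.5% beside 28.3% lower and 27.9% higher among all genes. Their median log2 fold change was -0.09, which was 0.69 with equal library totals, 0.49 with library size alone and 0.03 without control 3. The falls numbered 3 without control 2 and 2 without control 3, beside 32.7% and 34.0% of all genes lower. The rises numbered 1 without treated 2 and 1 without treated 3 (12.5% each), beside 20.9% and 20.5% of all genes higher. Ndufaf6, a factor of early assembly (GRCm38 chr4:11051045-11076205), had 18.2, 16.3 and 15.96 FPKM in control 1, 2 and 3 and 6.38, 5.88 and 5.42 FPKM in treated 1, 2 and 3. The treated libraries were all below the control ones, and the gene was 2.86-fold lower (log2 fold change -1.37 ± 0.11, limma adjusted p = 0.000368). Ndufaf4, which acts on the Q module intermediate (GRCm38 chr4:24898083-24905001), had 0.999, 1.03 and 0.645 FPKM in control 1, 2 and 3 and 2.33, 2.53 and 3.14 FPKM in treated 1, 2 and 3. These values rest on 122, 127 and 59 reads in the control libraries and 408, 437 and 542 reads from treated cells, and the mean was 3.00-fold higher (log2 fold change 0.96 ± 0.13, limma adjusted p = 0.00189). Among the control libraries only control 2 reached 1 FPKM, so the gene passed the filter through its treated libraries, and without a filter it was also called (limma adjusted p = 0.00925). Ndufaf3, its partner in the same step, had 6.06, 5.65 and 6.30 FPKM in the control libraries and 7.22, 7.53 and 8.49 FPKM in the treated ones and was 1.29-fold higher (log2 fold change 0.32 ± 0.11, limma adjusted p = 0.0427).

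The rise of Ndufaf3 was called under 7 of 18 alternatives and was lost when any library other than control 3 was left out, with limma adjusted p between 0.0614 without control 2 and 0.177 without treated 3. Ndufaf1, a member of the MCIA complex that assembles part of the membrane arm, had 6.15, 6.34 and 7.08 FPKM in the control libraries and 8.61, 9.72 and 10.8 FPKM in the treated ones. No control library reached a treated one, and the gene was 1.49-fold higher (log2 fold change 0.51 ± 0.12, limma adjusted p = 0.0130). It was called under 15 of 18 alternatives and lost without treated 2 (limma adjusted p = 0.0582), without treated 3 (0.0650) and with sample weights (0.0739). Ndufaf5, which hydroxylates Ndufs7, had 8.65, 7.70 and 14.3 FPKM in the control libraries and 5.61, 5.38 and 7.14 FPKM in the treated ones. Its groups did not overlap and it was not called (log2 fold change -0.64 ± 0.24, limma adjusted p = 0.0599), while it passed without control 2 (0.0276) and without control 3 (0.0436). Ndufaf8, the partner of Ndufaf5, had 20.7, 12.3 and 46.8 FPKM in the control libraries and 15.6, 15.98 and 10.8 FPKM in the treated ones, with control 3 far above the rest and overlapping groups (log2 fold change -0.68 ± 0.46, limma adjusted p = 0.248). It passed without control 2 (0.0421).

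Ndufaf7, a methyltransferase, had 7.09, 5.73 and 12.9 FPKM in the control libraries and 7.38, 8.25 and 7.74 FPKM in the treated ones. Its treated values were within the control range (log2 fold change -0.05 ± 0.27, limma adjusted p = 0.874), and the change was 0.83 with equal library totals and 0.61 with library size alone. Ndufaf2, a relative of Ndufa12, had 1.74, 3.63 and 2.12 FPKM in the control libraries and 2.08, 2.52 and 1.77 FPKM in the treated ones (log2 fold change -0.13 ± 0.22, limma adjusted p = 0.626). Its exons overlap the antisense gene B230220B15Rik over 65.6% of their length, and reads of the 2 genes cannot be told apart without a known strand setting. Ndufa4, now placed in complex IV, had 37.6, 55.9 and 25.0 FPKM in the control libraries and 41.2, 46.4 and 42.9 FPKM in the treated ones and was not called (log2 fold change 0.21 ± 0.28, limma adjusted p = 0.557). The hypoxia-inducible relative Ndufa4l2 was under the filter, with 0, 0.202 and 0.857 FPKM in control and 0.427, 0.0413 and 0.144 FPKM in treated from 22 reads or fewer in each library. Ndufb2, a subunit of the ND5 end, was the only other member under the filter, with 0.415, 0.454 and 0.167 FPKM in the control libraries and 0.455, 0.269 and 0.313 FPKM in the treated ones.

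Summed over a class, the deposited FPKM of the core subunits were 404 to 507 for control and 211 to 225 for treated, and those of the accessory subunits were 1698 to 2588 and 792 to 958. The assembly factors summed to 69.6, 58.7 and 106 for control and 55.2, 57.8 and 55.3 for treated. Per 1e6 of each library's FPKM total the core subunits made up 974, 896 and 952 for control 1, 2 and 3 and 892, 931 and 902 for treated 1, 2 and 3, with overlapping groups. Accessory subunits made up 4232, 3770 and 4858 in control against 3586, 3959 and 3358 in treated, also with overlap. Assembly factors made up 154, 130.2 and 199 in control against 233, 239 and 235 in treated, without overlap. On this scale the median log2 fold change of all genes was 0.80. Assembly factors outside the Ndufaf family, at 172 to 187 for control and 282 to 293 for treated, and transcription regulators of respiratory genes, at 144 to 162 for control and 222 to 237 for treated, were without overlap too. The ratio of assembly factors to core subunits within a library does not depend on a single factor per library, but it can depend on corrections by expression level. It was 0.158, 0.145 and 0.209 in control against 0.261, 0.257 and 0.260 in treated, so that every treated library was above every control library. Core and assembly medians of -1.10 and -0.09 as deposited became -0.51 and -0.18 with quantile normalization, and -0.52 and -0.20 with the level trend removed. The median control mean was 51.2 FPKM for core subunits and 7.56 FPKM for assembly factors, and the part of expression level in the ratio was not tested. Accessory over core was 4.35, 4.21 and 5.10 in control against 4.02, 4.25 and 3.72 in treated, and these overlapped.

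**Figure D3:**
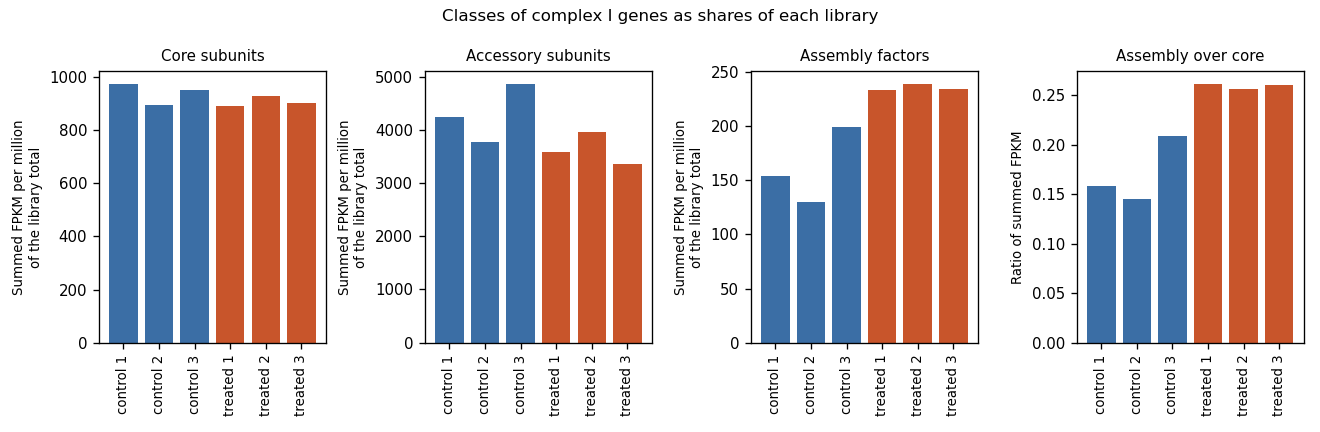
Summed FPKM of core subunits, accessory subunits and assembly factors per 1e6 of each library's FPKM total, and the ratio of assembly factors to core subunits, with 1 bar per library (blue control, orange treated). The groups overlap for both kinds of subunit and are apart for the assembly factors (130.2 to 199 against 233 to 239, on a scale where the median log2 fold change of all genes is 0.80) and for the ratio (0.145 to 0.209 against 0.257 to 0.261).

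Members varied more within control than within treated libraries. Over all genes tested, control libraries also correlated less with each other (0.911 to 0.974) than treated ones (0.991 to 0.993). The SD was higher in control for 41 of the 44 tested members, and the median SD on the log2(FPKM + 1) scale was 0.41 in control and 0.14 in treated. Grouped, after their values were seen, by the order of the control libraries, 19 members were lowest in control 2, intermediate in control 1 and highest in control 3, and 14 had the reverse order. In the 19, which include Ndufb11, Ndufa13, Ndufa2, Ndufb5 and Ndufv1, 12 fell and the median change was -1.08. In the 14, which include Ndufv2, Ndufa1, Ndufa10, Ndufa12 and Ndufa3, 4 fell and the median was -0.14, and groups overlapped for 10. The same orders split all genes tested, with 44.1% lower and a median of -0.48 in the first order and 13.8% lower and a median of 0.29 in the reverse. Control 2 held more mitochondrial complex I reads than the other controls, at 0.0652% of its reads, and the part of these library differences in the members' changes was not tested. Across the 44 members, the log2 fold change had a Spearman correlation of -0.44 with GC content and 0.26 with log2 exon length. It was -0.69 with the log2 control mean, which itself enters the fold change. These are a description over genes that share the same 6 libraries.

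The 7 complex I mRNAs of mitochondrial DNA were called higher as deposited, beside 27.9% of all genes. Of these, mt-Nd3 and mt-Nd4l were under 1 FPKM in every control library and mt-Nd1, mt-Nd2, mt-Nd4 and mt-Nd6 in control 3, so that these 6 passed the filter only through treated libraries and their calls give no support by number. mt-Nd1, a core subunit of the membrane arm next to the quinone site, had 15.8, 208 and 0.268 FPKM in control 1, 2 and 3 and 674, 764 and 759 FPKM in treated 1, 2 and 3 (log2 fold change 5.48 ± 1.71, limma adjusted p = 0.0340). The control libraries differed by far more than the treated ones, with mt-Nd1 almost absent from control 3. The 7 mRNAs took 0.00347, 0.0652 and 0.000454% of the reads for control 1, 2 and 3 and 0.248, 0.266 and 0.277% for treated 1, 2 and 3. The number called was 2 without control 1, without treated 1, without treated 2 or without treated 3, 5 without control 3, 4 with a pseudocount of 0.1 FPKM, and 2 without a filter on low values. The 2 of 7 are 28.6%, beside 20.5 to 23.0% of all genes higher in those leave-out fits and 14.7% without a filter. The 5 and 4 are 71.4% and 57.1%, beside 32.7% and 26.9% of all genes. Libraries were selected on poly-T beads, and the part of that selection in the mitochondrial values was not tested.

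Assembly factors of complex I outside the Ndufaf family were mostly not called as deposited. Of the 11 genes listed, 10 were matched and tested (Coa1 was not matched), 1 fell and 1 rose, and the median was -0.08, which turned to 0.73 with equal library totals, 0.52 with library size alone and 0.10 without control 3. Dmac1, a factor of the distal membrane arm, had 35.3, 37.3 and 29.9 FPKM in the control libraries and 20.6, 20.6 and 19.4 FPKM in the treated ones (log2 fold change -0.72 ± 0.12, limma adjusted p = 0.00342). Its call was lost under quantile normalization (limma adjusted p = 0.115), each removal of trends and each rescaling of libraries, with a change of 0.24 with equal totals. Tmem186, a member of the MCIA complex like Ndufaf1, had 0.349, 0.288 and 0.352 FPKM in the control libraries and 2.70, 2.20 and 2.36 FPKM in the treated ones (log2 fold change 1.36 ± 0.09, limma adjusted p = 0.000261). It was under 1 FPKM in every control library and passed the filter only through the treated ones, so that it had to differ. Acad9, Ecsit, Tmem126b, Timmdc1, Nubpl, Foxred1, Tmem70 and Dmac2 were not called as deposited, with changes from -0.22 for Tmem70 to 0.16 for Foxred1.

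Nuclear subunits of the other respiratory complexes and of ATP synthase were measured in the same fit. Of 42 tested genes 30 were lower and none higher, with a median of -0.97 that was 0.02 with equal library totals, beside 22 of 35 complex I subunits with a median of -0.80. The share lower was 71.4%, beside 28.3% of all genes. All 4 subunits of complex II, 7 of 9 of complex III, 5 of 12 of complex IV and 14 of 17 of ATP synthase were lower. With the trends in level, length and GC removed 9 of the 42 were lower and 2 higher, shares of 21.4% and 4.76%. Of all genes 23.2% were lower and 22.2% higher there, so the share lower was near that of all genes. With library size alone 16 were lower and 2 higher, beside 10.3% and 54.3% of all genes. With equal totals 11 were lower and 6 higher, beside 6.62% and 64.6%. The difference between complex I and the other complexes was not tested.

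Of 10 transcription regulators of respiratory genes 8 were tested, and 3 were called lower and 2 higher, shares of 37.5% and 25.0% beside 28.3% and 27.9% of all genes. The falls numbered 1 without treated 2, beside 20.1% of all genes lower. The rises numbered 1 without control 1 or any treated library, beside 20.5 to 23.0% of all genes higher. With equal library totals, and with library size alone, none was lower and 5 were higher. That share of 62.5% stood beside 64.6% of all genes higher with equal totals and 54.3% with library size alone. Nrf1, which encodes nuclear respiratory factor 1, had 6.16, 6.59 and 4.76 FPKM in the control libraries and 3.55, 3.38 and 3.96 FPKM in the treated ones, and its groups did not overlap (log2 fold change -0.55 ± 0.14, limma adjusted p = 0.0153). That call was lost without control 1 (limma adjusted p = 0.0541), treated 1 (0.0630) and treated 2 (0.0686), and the change was 0.26 with equal library totals. Yy1 had 24.4, 22.3 and 32.4 FPKM in the control libraries and 11.9, 12.9 and 12.4 FPKM in the treated ones (log2 fold change -1.01 ± 0.16, limma adjusted p = 0.00265), with a change of -0.07 and limma adjusted p = 0.630 with equal totals. Esrra, the estrogen-related receptor alpha gene, had 14.8, 10.8 and 25.5 FPKM in the control libraries and 7.30, 6.42 and 6.46 FPKM in the treated ones (log2 fold change -1.14 ± 0.29, limma adjusted p = 0.0167), and was not called without treated 2 (limma adjusted p = 0.0558) or treated 3 (0.0582). Gabpb2, a subunit of the ETS factor GABP, had 0.837, 0.748 and 0.602 FPKM in the control libraries and 2.57, 2.90 and 2.67 FPKM in the treated ones (log2 fold change 1.10 ± 0.10, limma adjusted p = 0.000441), and it too passed the filter only through the treated libraries and had to differ. Pprc1, a PGC-1-related coactivator, had 3.95, 3.87 and 4.35 FPKM in the control libraries and 5.69, 4.97 and 5.69 FPKM in the treated ones (log2 fold change 0.35 ± 0.10, limma adjusted p = 0.0285). Gabpa, Gabpb1 and Tfam were not called, and Ppargc1a and Ppargc1b were under the filter. The long nuclear RNAs Malat1 and Neat1 both fell as deposited, Malat1 by 1.11 and Neat1 by 0.59 on the log2 scale, while their sum per 1e6 of the FPKM total overlapped, at 353 to 421 for control and 323 to 414 for treated.

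**Figure D4:**
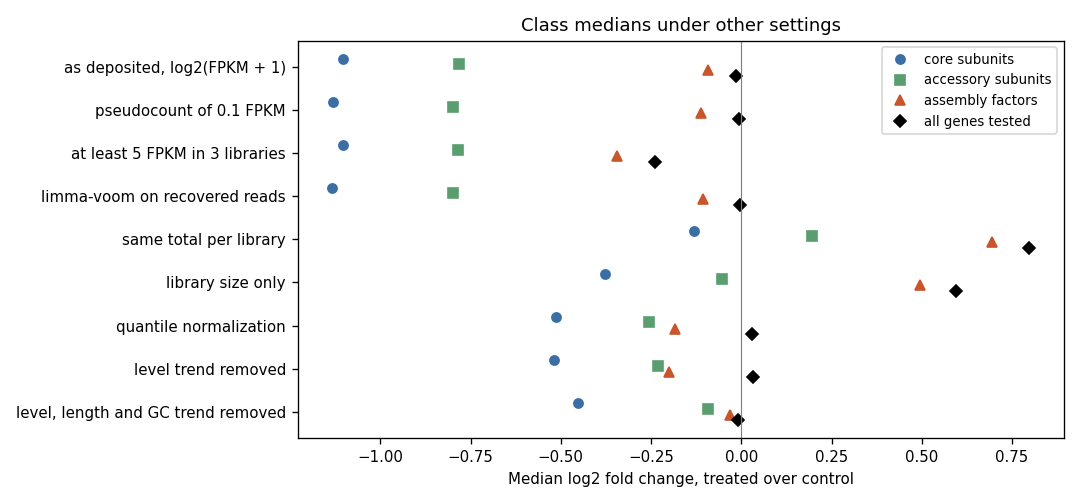
Median log2 fold change (treated over control) of core subunits, accessory subunits, assembly factors and all genes tested under 9 settings, 1 row each. Core subunits lie to the left of all genes in every row, at -1.10 against -0.01 as deposited and -0.45 against -0.01 with level, length and GC trends removed, while accessory subunits cross 0 with equal library totals (0.19) and assembly factors cross it under both rescalings (0.69 and 0.49).

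Some counts are shared with other genes. Exons of 19 members overlap an exon of another gene in GENCODE M21, 17 of them on the opposite strand, among them Ndufb11 with Rbm10, Ndufb5 with Mrpl47 and Ndufa13 with Tssk6. Without a stated strand setting such reads cannot be assigned to either gene. Processed pseudogenes of Ndufab1, Ndufs6, Ndufb4 and Ndufa11 are also in the tables, so that the values of these 4 members are uncertain where near-identical copies share reads. The tested members had between 59 and 13469 recovered reads in a library. No molecular identifiers are described, so PCR copies are not independent molecules and these depths speak for counting error alone.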

How the data were processed

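RNA was sequenced from 3 control and 3 treated samples of 4T1 cells, grouped and numbered by the sample labels. Libraries were made, per the labels' protocols, from 3 µg of RNA each by poly-T selection and fragmentation to 150 to 200 bp, and read as 150-base pairs. Aligner, counter, genome build, annotation and strand were not given in the labels or headers used here. The authors deposited FPKM, 1 value per gene and sample, per the file headers. GENCODE M21 on GRCm38 gave symbols for 52073 of 56748 identifiers, lengths and coordinates, and may not be the authors' annotation. Reads were worked back from FPKM and exon length, and 92.5 to 93.4% of values under 200 reads came out whole within 0.02.

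Differences were tested on log2(FPKM + 1) by limma 3.58.1 (R 4.3.3), with a trended prior and group as the only term, for the 11118 genes that reached 1 FPKM in at least 3 libraries. Benjamini-Hochberg adjustment covered all of them, and calls were made at an adjusted p under 0.05. Fold changes are treated over control. Log2 fold changes are on the log2(FPKM + 1) scale, which understates the change of low genes, with their SE, and means are ± SD. Alternatives were another pseudocount, other filters, 2 rescalings of the libraries, quantile normalization, removal of trends fitted with mgcv 1.9.3, sample weights, a prior without a trend, limma's voom on the recovered reads, a replicate block and leaving out each library. The members and lists were chosen with earlier results of these data known. Per-library values are given for core subunits, of which 1 is counted in totals but not reported here by itself, all assembly factors, members called higher or under the filter, and the 5 largest falls, 3 changes nearest to 0 and largest rise among accessory subunits. Motifs were searched with Python 3.11.15 in RefSeq promoter windows.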

Additional observations from a re-analysis of the deposited data

How the results depend on the processing

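Members lower and higher in treated cells numbered 23 and 3 as deposited. With equal library totals they were 6 and 11, with library size alone 9 and 7, with quantile normalization 12 and 4, with the level trend removed 9 and 3, with trends in level, length and GC removed 12 and 5, and with sample weights 21 and 1. With sample weights 26.8% of all genes were lower and 26.7% higher. Leaving out each library gave 13 to 27 lower and 1 to 4 higher, beside 19.2 to 34.0% and 20.5 to 32.7% of all genes. Without a filter on low values 16 of 46 tested were lower, and voom on recovered reads gave 26, beside 9.80% and 28.6% of all genes lower. In the order equal totals, library size alone, quantile, level trend, and level, length and GC trends, the class medians were -0.13, -0.38, -0.51, -0.52 and -0.45 for core subunits and 0.19, -0.053, -0.26, -0.23 and -0.091 for accessory subunits. The assembly factors' median was 0.69 with equal totals, 0.49 with library size alone and -0.35 over the 6 factors at 5 FPKM or more. Leaving out each library gave medians of -1.25 to -0.77 for core subunits, -0.88 to -0.67 for accessory subunits and -0.22 to 0.03 for assembly factors. Against control 2 alone, chosen after seeing the data and with no test, the core median was -0.73 and the assembly median 0.28. With equal totals 30 of the 44 members had changes above 0, with library size alone 23, and as deposited 7. Among the members given per library, changes that were called under either setting turned sign for Ndufs7 (0.078), Ndufs1 (0.43), Ndufaf7 (0.83) and Ndufab1 (0.74) with equal totals, for Ndufaf7 (0.61) and Ndufab1 (0.55) with library size alone, and for Ndufa1 (1.17) with trends in level, length and GC removed. The cause of these changes with the processing was not tested. With the replicate number as a block 23 members were lower and 2 higher, beside 24.0% and 23.5% of all genes. Under it Ndufaf3 (limma adjusted p = 0.127), Ndufb6 (0.07825), Ndufb9 (0.0621), Nrf1 (0.0539) and Pprc1 (0.0968) were no longer called, and Ndufaf5 (0.0325) and Ndufa6 (0.0416) were. Samples of the same number did not deviate together (correlations -0.05, -0.11 and -0.14, beside -0.01 to 0.13 for the other pairs). No pairing by number was seen, and 3 libraries per group cannot exclude one. The depth limits the low members most, with 59 reads for Ndufaf4 in control 3.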

Other observations

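Rows with an Nduf symbol that GENCODE M21 does not class as protein-coding numbered 5 and were not members. Ndufb1-ps, which RefSeq names Ndufb1 and GENCODE M21 lists as a long non-coding RNA at a bidirectional promoter, had 9.56, 17.8 and 2.11 FPKM in control 1, 2 and 3 and 9.51, 13.7 and 7.76 FPKM in treated 1, 2 and 3. The treated values lay within the control range, and control 2 was the highest library and control 3 the lowest, the order also seen for Ndufa1, Ndufa10 and Ndufa12. The processed pseudogene Ndufab1-ps had 13.8, 11.8 and 7.11 FPKM in control and 9.84, 8.99 and 8.36 FPKM in treated, above the FPKM of its parent gene Ndufab1 in every library. By reads the order was the reverse, with 78 to 207 per library for Ndufab1-ps and 392 to 1100 for Ndufab1. The FPKM of Ndufab1 are divided by an exon length of 6883 bases. Ndufs6b, a processed pseudogene of Ndufs6, had 1.10, 1.45 and 5.40 FPKM in control and 1.47, 2.08 and 0.325 FPKM in treated. Ndufb4c reached at most 1.74 FPKM, and Ndufa11b had 2 reads in treated 1 and none in the other libraries.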
